A study of Mus musculus with 6 samples.

Results

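The genes described here are the nuclear genes for subunits of the mitochondrial respiratory chain and ATP synthase, measured by RNA-seq in the immortalized mouse microglial line BV2. BV2 cells were left untreated (CON group, 3 libraries) or incubated with recombinant sTREM-1 protein, the soluble form of the myeloid receptor TREM-1, at 1 μg/mL for 6 h (sTREM-1 group, 3 libraries). Both groups were grown in six-well plates from the same line, and no vehicle or inactive protein is named for the CON group. The libraries held between 40070633 and 45877107 counts, and counts are given below as CPM, which relates them to the size of the scaled library. Members were taken by gene symbol, as those that begin with Ndufa, Ndufb, Ndufc, Ndufs, Ndufv, Uqcr, Cox4i, Cox5, Cox6, Cox7, Cox8 or Atp5, together with Sdha, Sdhb, Sdhc, Sdhd and Cyc1. Assembly factors named Ndufaf and numbered pseudogenes were left out, and at least 60 counts summed over the 6 libraries were required. Of 46095 genes in the table, 88 matched the symbols and 80 reached the count minimum, and all 80 were among the 14120 genes tested. Complex I had 35 members, complex II 4, complex III 9, complex IV 14 and complex V 18. Cox7a2l, Atp5s, Atp5sl and Atp5l2-ps carry these symbols but are not held to be subunits of their complex, and Ndufa4 was counted in complex IV, where its protein is now placed.

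The respiratory chain passes electrons from NADH (complex I) and succinate (complex II) through coenzyme Q to complex III, and through cytochrome c to complex IV, which reduces oxygen. Complexes I, III and IV pump protons across the inner mitochondrial membrane, and complex V, the ATP synthase, lets them back to make ATP. Nuclear genes encode most subunits and all of complex II, while the mitochondrial genome encodes central subunits of the other complexes. In microglia and macrophages, the balance between this pathway and glycolysis is known to shift on activation.

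Markers of the labelled cell type were counted in all libraries, with exceptions. Of 12 microglia and macrophage markers, 11 passed the filter on low counts. Of these, 5 were called higher after sTREM-1, beside 16.5% of all tested genes, with Csf1r changed by 0.53 on the log2 scale. The estimates of 8 were positive and those of 3 (Cd68, Tyrobp and Tmem119) negative. Aif1, which encodes Iba1, was listed at 0 in all 6 libraries. P2ry12 had between 23 and 63 counts, Cx3cr1 between 33 and 93 and Tmem119 between 49 and 73. Some general respiratory subunits are also nearly missing from this table, and the annotation used for counting is not given in the sources used here, so that a 0 says only how the gene is listed. The 5 neuron markers summed to 2 to 13 counts per library, the 4 astrocyte markers to 5 to 13, the 4 T and B cell markers to 0 to 4 and the 4 fibroblast markers to 8 to 21. The 4 oligodendrocyte markers summed to 240 to 321 counts. Of these, 1 had an unadjusted p under 0.05 and 0 were called by edgeR's quasi-likelihood test, DESeq2 or edgeR's exact test. Rbfox3, Aqp4, Aldh1l1, Mog, Dcn, Col1a2 and Cd3e were at 0 in every library.

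The 80 nuclear-encoded members took up nearly the same share of all counts in both groups. They held 0.906%, 0.902% and 0.883% of the counts in CON libraries 1, 2 and 3. In sTREM-1 libraries 1, 2 and 3 they held 0.902%, 0.902% and 0.908%. The means were 0.897% ± 0.0124 (SD, n = 3) and 0.904% ± 0.00347 (SD, n = 3), and the groups overlapped. In whole cultures, a change in the number of cells that express a gene and a change in its mRNA per cell cannot be told apart.

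Within that steady total, 11 members rose and 8 fell after sTREM-1 (edgeR's quasi-likelihood test, Benjamini-Hochberg adjusted over all 14120 genes, threshold 0.05). These 19 are 23.8% of the members, while 30.5% of all tested genes were called, 16.5% as higher and 14.1% as lower. In 27 members (33.8%), 17 higher and 10 lower, the CON and sTREM-1 libraries did not overlap, against 40.7% of all tested genes, so that neither share stood above the background. The changes were small. The median log2 fold change of the members was 0.03, with quartiles of -0.06 and 0.07, beside a median of -0.00 over all tested genes. Its absolute value had a median of 0.07 in the members and 0.13 in all tested genes, and 63 members (78.8%) lay within 1.1-fold of the CON level, compared with 52.9% of all tested genes. Among the 61 members that were not called, the 95% confidence interval of 50 lay within 1.2-fold in both directions, and that of 11 reached further. With a correction for GC content and length, 16 members were called higher and 5 lower. Leaving out CON replicate 3 left 7 higher, and leaving out CON replicate 1, CON replicate 2 or sTREM-1 replicate 3 left 5 lower in each case.

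**Figure D1:**
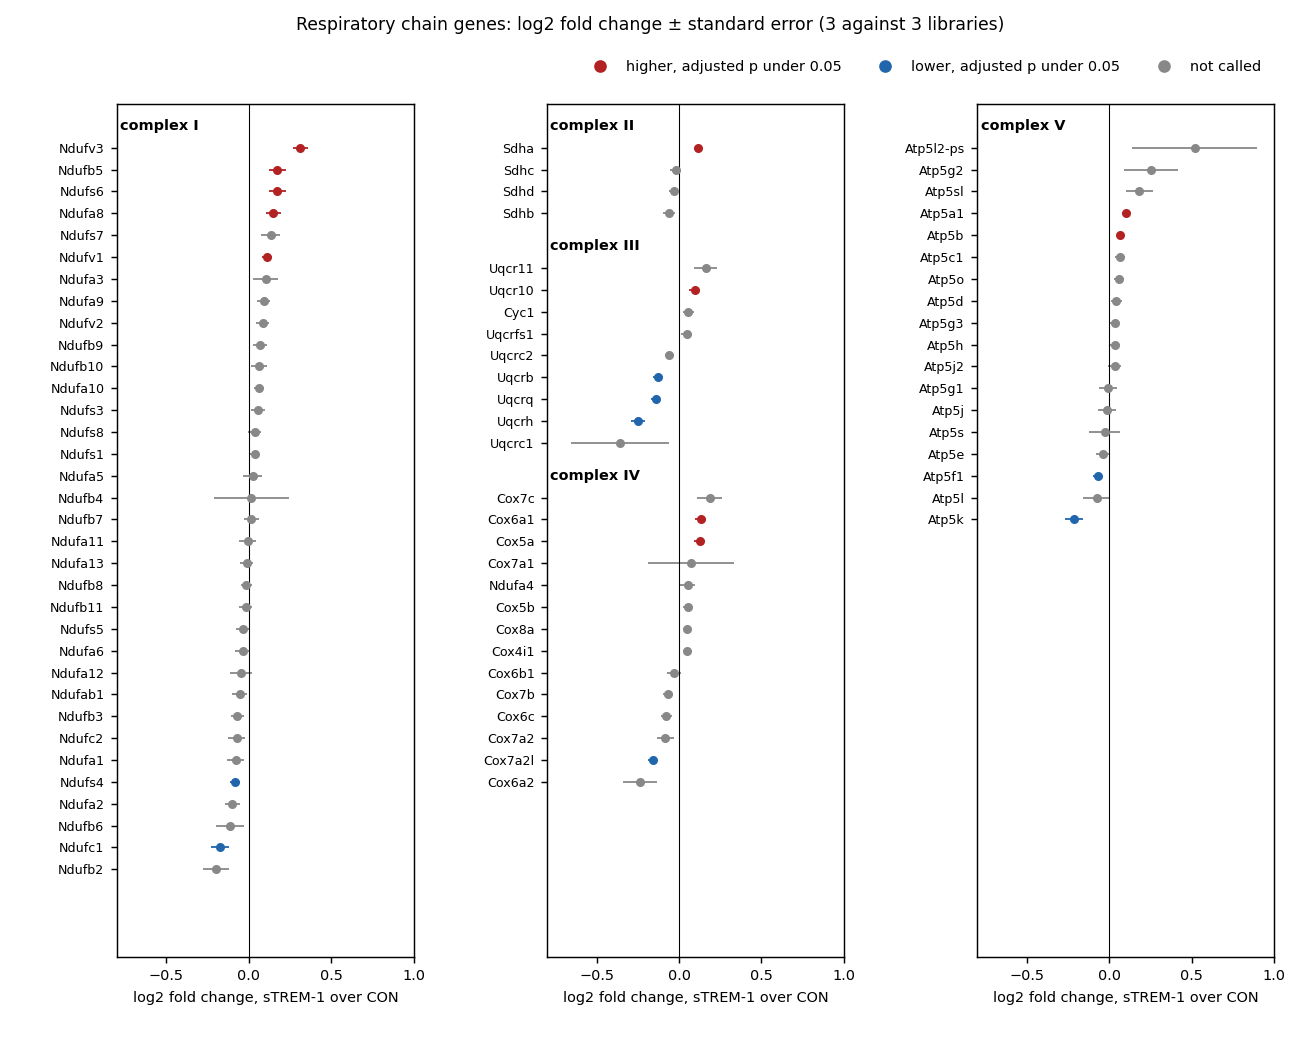
Log2 fold change of sTREM-1 over CON (x axis) with its standard error (bars) for the members, ordered within complexes I to V, with 1 uncalled member left out; red and blue points had an adjusted p under 0.05 in edgeR's quasi-likelihood test, grey points did not. The 11 higher and 8 lower members lie on both sides of 0 in complexes I, III, IV and V, and the widest bars belong to Atp5l2-ps, Uqcrc1, Cox7a1 and Ndufb4, which have few counts.

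The members' promoters are shown here for the called genes that carry a known motif of respiratory chain regulators, together with the counts of members that have the same letters and were not called. NRF1, YY1, the ETS factor GABPA and the estrogen-related receptors are known regulators of genes of this kind. Promoter sequence from 250 bases before to 50 bases after the transcription start was taken from RefSeq (build GRCm38.p6), where 66 of the 80 members matched. The letters TGCGCANGC (NRF1 core), AAGATGGCG (YY1), CCGGAAG (ETS) and TCAAGGTCA (estrogen-related receptor element) were searched on both strands, and no overlap between motifs was removed. The NRF1 core was found in 12 members (18.2%, against 4.70% of 27025 genes), the YY1 letters in 8 (12.1% against 1.64%), the ETS letters in 16 (24.2% against 9.93%) and the receptor element in 2 (3.03% against 0.466%). Of the 66 promoters, 33 held none of these letters.

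The NRF1 core stood in 3 of the 10 higher members that had a promoter (Sdha, Cox6a1 and Ndufa8), in 0 of 6 lower members, and in 9 of 50 that were not called. The 9 uncalled genes include Sdhd, and also Uqcrc1, Ndufb4 and Atp5g2, which have few counts. Whether these letters bear on the response was not tested. Promoters of the 3 higher members follow from 120 bases before to 20 bases after the start, 5′ to 3′ along the gene, with the NRF1 core and, in Cox6a1, the ETS letters at -16 in capitals. All lie on the minus strand, Sdha at chr13:74350221-74350360, Cox6a1 at chr5:115348939-115349078 and Ndufa8 at chr2:36049319-36049458.
Sdha: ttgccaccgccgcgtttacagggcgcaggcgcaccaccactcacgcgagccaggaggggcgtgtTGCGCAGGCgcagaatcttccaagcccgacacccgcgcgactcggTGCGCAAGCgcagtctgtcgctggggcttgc
Cox6a1: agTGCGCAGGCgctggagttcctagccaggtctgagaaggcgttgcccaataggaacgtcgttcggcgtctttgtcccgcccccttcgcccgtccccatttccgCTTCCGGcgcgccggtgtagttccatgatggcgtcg
Ndufa8: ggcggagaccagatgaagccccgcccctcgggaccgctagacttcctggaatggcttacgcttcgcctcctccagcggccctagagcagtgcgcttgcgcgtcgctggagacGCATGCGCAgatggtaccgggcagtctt

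The ETS letters stood in 1 higher member (Cox6a1, above), in 2 lower members (Uqcrh and Atp5k) and in 13 members that were not called. In both lower members they read CTTCCGG along the gene, the reverse complement, at -10 in Uqcrh and at 13 in Atp5k. The windows are on the minus strand, Uqcrh at chr4:116075051-116075190 and Atp5k at chr5:108434380-108434519, with the ETS letters in capitals.
Uqcrh: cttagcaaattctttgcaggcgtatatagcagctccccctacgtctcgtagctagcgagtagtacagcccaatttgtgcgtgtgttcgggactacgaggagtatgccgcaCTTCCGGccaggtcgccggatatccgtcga
Atp5k: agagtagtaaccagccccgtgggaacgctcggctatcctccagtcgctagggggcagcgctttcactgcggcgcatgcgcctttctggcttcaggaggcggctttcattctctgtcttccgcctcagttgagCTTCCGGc

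The YY1 letters stood just after the start of 3 called members of complex I. Ndufs6, which was higher, has them at 34, and Ndufs4 and Ndufc1, which were lower, at 36 and 23. A further 5 members with these letters were not called. The sites are shown with up to 10 bases on either side and the YY1 letters in capitals, all on the minus strand, Ndufs6 at chr13:73328433-73328459, Ndufs4 at chr13:114388045-114388069 and Ndufc1 at chr3:51408915-51408943.
Ndufs6: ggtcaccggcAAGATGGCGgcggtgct
Ndufs4: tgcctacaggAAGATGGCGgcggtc
Ndufc1: cctgcggaacAAGATGGCGccgtccgtag

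In untreated cells the members spanned a wide range of levels. Divided by the length of the GENCODE transcript, the CON mean ran from 1.51 to 799 CPM per kilobase, with a median of 88.5. Cox4i1, the regulatory subunit of complex IV that is present in most tissues, was the highest, at 799 ± 22.0 CPM per kilobase (SD, n = 3). Atp5b, the catalytic beta subunit of ATP synthase, followed at 651 ± 0.799 and Uqcrq, a small subunit of complex III, at 421 ± 6.03. Atp5o and Atp5a1, the OSCP and alpha subunits of ATP synthase, came next at 340 ± 7.26 and 336 ± 3.78, and these neighbours did not differ beyond their spread. Complex I was expressed at the lowest median level, 69.2 CPM per kilobase, and Ndufb8 was its highest member, at 191 ± 8.21, followed by Ndufc1 at 154 ± 10.2. Medians were 112 in complex II, 113 in complex III, 118 in complex V and 151 in complex IV. A level per length depends on the transcript chosen: with the longest transcript of each gene, Uqcrq came to 139 and Ndufb8 to 60.8 CPM per kilobase.

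**Figure D2:**
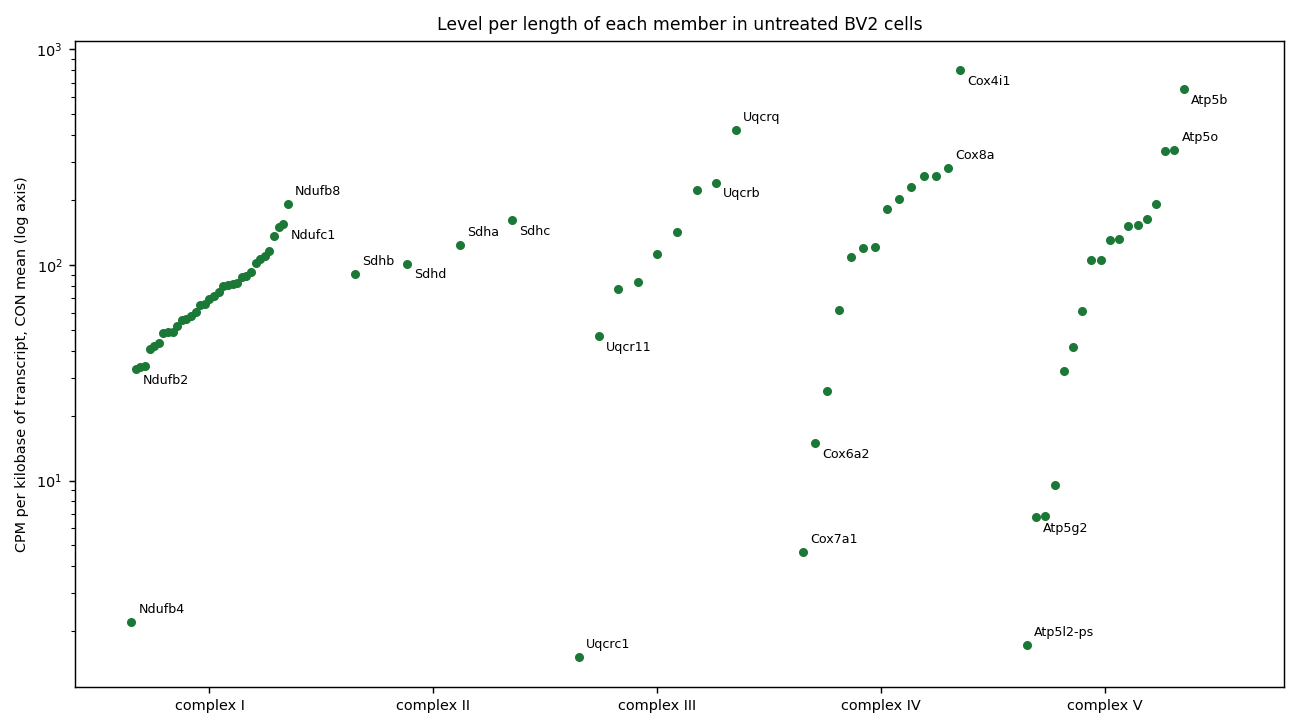
CON mean of each member in CPM per kilobase of transcript (log axis), sorted within each complex, with the extreme members named. Cox4i1 and Atp5b lie highest at 799 and 651, and Uqcrc1, Atp5l2-ps and Ndufb4 lie lowest, between 1.51 and 2.21.

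The isoforms of complex IV were those of non-muscle cells. Cox4i1 had 595 ± 16.4 CPM in the CON group, while Cox4i2, its lung and hypoxia counterpart, stood at 3, 1 and 0 counts in CON and at 13, 6 and 1 in sTREM-1 libraries and fell below the count minimum. Cox6a1, the general form, had 131 ± 2.15 CPM beside 10.1 ± 0.774 for the muscle form Cox6a2, and Cox7a2 had 40.8 ± 1.44 CPM beside 1.82 ± 0.416 for the muscle form Cox7a1. Cox6b1 had 91.0 ± 6.50 CPM and Cox8a 154 ± 2.78, while the testis form Cox6b2 was listed at 0 and the muscle form Cox8b had 1 count in all. Ndufa4 had 49.0 ± 0.816 CPM, and Ndufa4l2, its hypoxia-induced counterpart, 16 counts in all 6 libraries. The c subunit of ATP synthase, whose genes encode the same mature protein, came mainly from Atp5g3 (108 ± 4.50 CPM), then Atp5g1 (28.7 ± 1.05) and Atp5g2 (2.98 ± 0.275), and none of these was called after sTREM-1 (log2 fold changes 0.03, -0.01 and 0.25). Atp5g2 has 2 near-identical copies in the genome, so its counts are uncertain.

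The count minimum left out 8 matching symbols, of which Cox6b2, Cox7b2 and Cox8c were at 0. Ndufa7, a subunit of complex I in every tissue, had 15 counts and Uqcrc1, a core subunit of complex III, only 557, so that some general subunits are nearly missing from this table. Just inside the minimum, Atp5l2-ps stood at 26, 14 and 26 counts in CON and at 36, 36 and 27 in sTREM-1 libraries. Just outside, Cox4i2 had 24 counts in all.

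Summed over its members, complex III was lower and complexes II and V were higher after sTREM-1, each by less than 5%. Complex III summed to 971, 961 and 954 CPM in the CON libraries and to 926, 932 and 934 in the sTREM-1 libraries. This is a change of -3.24% without overlap. Complex V summed to 3272, 3266 and 3204 CPM in the CON libraries and to 3377, 3332 and 3397 in the sTREM-1 libraries, a change of 3.74%, and complex II changed by 2.96%, both without overlap. Complexes I and IV changed by 1.79% and 1.03%, and their groups overlapped. Relative to raw library totals, without the scaling between libraries, complex III changed by -4.35%, complex V by 2.54% and complex II by 1.77%. The groups again did not overlap, but in complex II CON library 1 (725.3 CPM) and sTREM-1 library 1 (726.5 CPM) nearly met. The sums were not recomputed with the correction for GC content and length. That correction made the falls of Uqcrq and Uqcrb smaller and the rise of Atp5o larger (below). The ratio of complex V to complex III, which no scaling of whole libraries can move, was 3.38 ± 0.0193 (SD, n = 3) in the CON group. In the sTREM-1 group it was 3.62 ± 0.0396 (SD, n = 3). Both sums had groups without overlap and moved in opposite directions, so this ratio had to separate the groups and adds no support. These sums follow the most abundant members and do not describe each member. Atp5a1 and Atp5b made up 63.9% of the complex V counts of the CON group and 65.1% of the sTREM-1 group. On average Atp5a1 went from 829 to 889 CPM and Atp5b from 1247 to 1304, while the complex V sum went from 3248 to 3369. In complex II, Sdha went from 357 to 387 CPM, and the log2 fold changes of the other 3 members were negative.

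**Figure D3:**
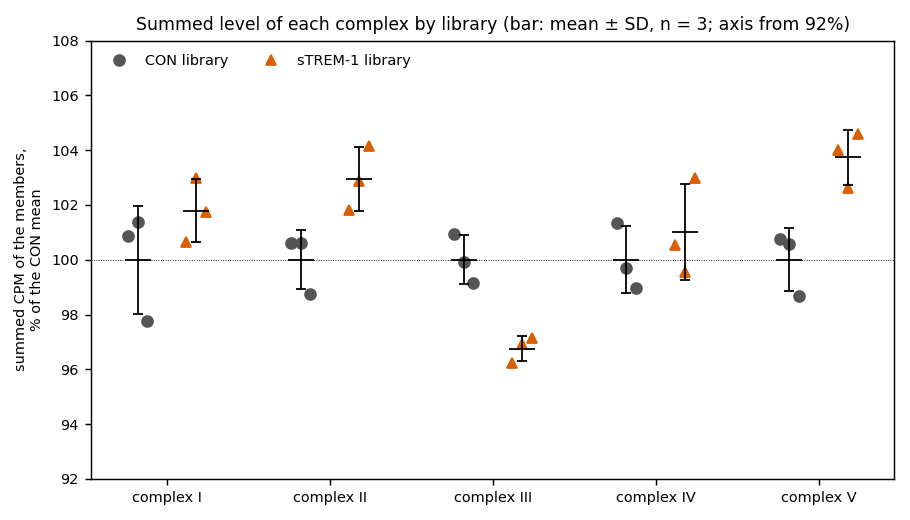
Summed CPM of the members of each complex in every library, as a percentage of the mean of the CON group (axis from 92%), with the mean and SD of each group. In complex III the 3 sTREM-1 libraries lie below all CON libraries, in complexes II and V above them, and in complexes I and IV the groups overlap.

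In complex I, 5 of 35 members rose and 2 fell (20% called, beside 30.5% of all tested genes), and the median log2 fold change was 0.02. In the N module, which oxidizes NADH at the tip of the matrix arm, 3 of 8 members rose and 1 fell, beside 30.5% of all tested genes called, and the calls of Ndufs6 and Ndufs4 did not hold in every analysis (below). Ndufv3, an accessory subunit of that module on chromosome 17 of GRCm38 from 31520115 to 31531331, had 50.01, 50.8 and 54.1 CPM in the CON libraries and 60.04, 67.9 and 64.2 in the sTREM-1 libraries. All sTREM-1 libraries lay above the CON libraries. Its change of 0.31 ± 0.05 (log2 fold change ± standard error, edgeR adjusted p = 2.94e-06), or 1.24-fold, was the largest among the called members. Ndufv1, which binds NADH and flavin, had 146, 148 and 145 CPM in the CON libraries and 156, 158 and 161 after sTREM-1. It rose by 0.11 ± 0.03 on the log2 scale (edgeR adjusted p = 0.00317). Ndufs6, a zinc-binding accessory subunit of the same module, had 34.4, 36.0 and 32.1 CPM in the CON libraries and 36.3, 40.3 and 39.0 after sTREM-1 (log2 fold change 0.17 ± 0.05, edgeR adjusted p = 0.0122). Its lowest sTREM-1 library lay only just above the highest CON library. Ndufs4, an accessory subunit whose loss causes Leigh syndrome, went the other way, from 110, 111 and 112 CPM to 106, 106 and 102. Its log2 fold change of -0.08 ± 0.03 (edgeR adjusted p = 0.0457) was no longer past the threshold in 10 of the 14 alternative analyses, including each that left out 1 library. Ndufv3 and Ndufv1 passed the threshold in all 14.

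Outside the N module, Ndufb5 and Ndufa8, which belong to the membrane arm, rose by 0.17 ± 0.05 and 0.15 ± 0.05 on the log2 scale (edgeR adjusted p = 0.0102 and 0.0148). Ndufb5 had 31.4, 29.5 and 29.3 CPM in the CON libraries and 33.1, 34.7 and 34.0 after sTREM-1, without overlap. Ndufa8 had 38.8, 37.7 and 36.1 CPM in the CON libraries and 41.2, 42.3 and 41.3 after sTREM-1, also without overlap. Calls of Ndufb5, Ndufa8 and Ndufs6 were lost without CON replicate 3 and without sTREM-1 replicate 2 (edgeR adjusted p up to 0.104). Ndufc1, a small membrane subunit, had 49.6, 51.0 and 44.8 CPM in the CON libraries and 42.5, 46.4 and 39.8 after sTREM-1 (log2 fold change -0.17 ± 0.05, edgeR adjusted p = 0.0118). It is the only called member whose groups overlapped, and its call was lost without CON replicate 1, CON replicate 2 or sTREM-1 replicate 3, and with the correction for GC content and length (edgeR adjusted p = 0.0572). Among 29 members that overlap a gene on the opposite strand, Ndufb5 lies over Mrpl47 and Ndufs6 over Mrpl36, and the strand setting of the counting is not given in the sources used here, so that reads of such pairs cannot be told apart. Another gene at least 95% identical over at least 150 nucleotides exists for 27 members, among them Ndufs6, Uqcr10, Uqcrb, Cox7a2l and Atp5f1 of the called ones. That search did not leave out overlapping genes, so the 27 can include members matched only by a neighbour at the same place.

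The core subunits that carry electrons from NADH to coenzyme Q were mostly not called. Ndufs1, the iron-sulfur subunit at the entry, changed by 0.04, from 193 ± 2.44 to 198 ± 5.32 CPM (SD, n = 3). Ndufv2, the partner of Ndufv1, changed by 0.08 on the log2 scale (edgeR adjusted p = 0.132). In the Q module, which hands electrons to coenzyme Q, 0 of 5 members passed the test in edgeR or DESeq2, 1 had an unadjusted p under 0.05, and all 5 estimates lay between 0.02 and 0.13. Ndufs7, which carries the last iron-sulfur cluster, came nearest, with 25.4, 26.0 and 25.4 CPM in the CON libraries and 27.3, 28.5 and 28.5 after sTREM-1. Its groups did not overlap, but its log2 fold change of 0.13 ± 0.06 had an edgeR adjusted p of 0.0733. Ndufs3 and Ndufs8 had log2 fold changes of 0.06 and 0.04 with 95% intervals that included 0. Ndufb8 and the remaining uncalled members of complex I lay between -0.20 (Ndufb2) and 0.10 (Ndufa3).

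Complex II oxidizes succinate and is also an enzyme of the citric acid cycle. Of its 4 subunits only Sdha was called (25%, beside 30.5% of all tested genes). Sdha, the flavoprotein that oxidizes succinate, lies on chromosome 13 from 74322254 to 74350280 and has the promoter with a pair of NRF1 cores shown above. It had 355, 357 and 359 CPM in the CON libraries and 385, 382 and 392 in the sTREM-1 libraries. The groups were far apart relative to their spread, and Sdha rose by 0.12 ± 0.02 on the log2 scale (edgeR adjusted p = 0.000241), with a call in all 14 alternative analyses. Sdhb, its iron-sulfur partner, had 109, 104 and 98.4 CPM in the CON libraries and 101, 99.2 and 98.7 after sTREM-1, with overlap and a log2 fold change of -0.06 ± 0.04 (edgeR adjusted p = 0.202). The membrane anchors Sdhc and Sdhd changed by -0.02 and -0.03, with 95% intervals of -0.09 to 0.05 and -0.10 to 0.04. The ratio of Sdha to Sdhb, a comparison chosen after the values were seen, was 3.44 ± 0.196 (SD, n = 3) in the CON group and 3.89 ± 0.0764 (SD, n = 3) after sTREM-1. The exact two-sided permutation p was 0.1, the smallest that 3 libraries against 3 allow. The same p was found for each of 6 such ratios, and its Benjamini-Hochberg adjusted value over them was 0.1. Since the pairs were picked with the values known, these p-values add no support.

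In complex III, 1 of 9 members rose and 3 fell (44.4% called, beside 30.5% of all tested genes), all of them among the 5 small subunits that surround the catalytic core. Uqcrh, the hinge protein that helps cytochrome c1 meet cytochrome c, lies on chromosome 4 from 116066965 to 116075071. It had 56.3, 57.4 and 56.9 CPM in the CON libraries and 47.6, 45.5 and 50.6 in the sTREM-1 libraries. The CON libraries agreed closely and every sTREM-1 library lay below them, with a log2 fold change of -0.25 ± 0.04 (edgeR adjusted p = 4.53e-05). Uqcrq, the most abundant member of complex III per length, had 214, 213 and 209 CPM in the CON libraries and 189, 193 and 194 after sTREM-1 (log2 fold change -0.14 ± 0.03, edgeR adjusted p = 0.0001). Uqcrb, which lies close to a coenzyme Q site, had 131, 127 and 126 CPM in the CON libraries and 118, 121 and 114 after sTREM-1 (log2 fold change -0.13 ± 0.03, edgeR adjusted p = 0.00243). The groups of both genes did not overlap. Uqcrh and Uqcrq were called in all 14 alternatives, although Uqcrq shrank to -0.09 after the correction for GC content and length. Uqcrb, which at 42.2% has a low GC content, was at -0.05 with an edgeR adjusted p of 0.206 after the correction for GC content and length.

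Uqcr10, another small subunit, rose instead. It had 95.9, 98.0 and 96.0 CPM in the CON libraries and 101, 102 and 107 in the sTREM-1 libraries, without overlap (log2 fold change 0.10 ± 0.03, edgeR adjusted p = 0.0282), and its call was lost in 3 analyses that left out 1 library (without CON replicate 1, CON replicate 3 or sTREM-1 replicate 3). The ratio of Uqcr10 to Uqcrh was 1.70 ± 0.0114 (SD, n = 3) in the CON group and 2.16 ± 0.0791 (SD, n = 3) after sTREM-1. Both genes had groups without overlap and moved in opposite directions, so this ratio had to separate the groups. Its exact permutation p of 0.1 was fixed in advance and adds no support. Uqcr11, the last small subunit, had 20.8 ± 1.29 and 23.3 ± 2.03 CPM (log2 fold change 0.16 ± 0.07, edgeR adjusted p = 0.0803). The catalytic subunits Cyc1 (cytochrome c1) and Uqcrfs1 (the Rieske iron-sulfur protein) had log2 fold changes of 0.06 and 0.05 with overlapping groups. Uqcrc2, a core protein, went from 217, 212 and 212 CPM to 206, 205 and 204, without overlap but with an edgeR adjusted p of 0.0949. Uqcrc1, the other core protein, stood at 48, 72 and 187 counts in CON and at 91, 80 and 79 in sTREM-1 libraries. CON library 3 alone set its direction, since the log2 fold change was -0.36 with all libraries (edgeR adjusted p = 0.412) and 0.41 without CON replicate 3 (edgeR adjusted p = 0.292). The median log2 fold change of complex III was -0.06, and 0.04 without that library.

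**Figure D4:**
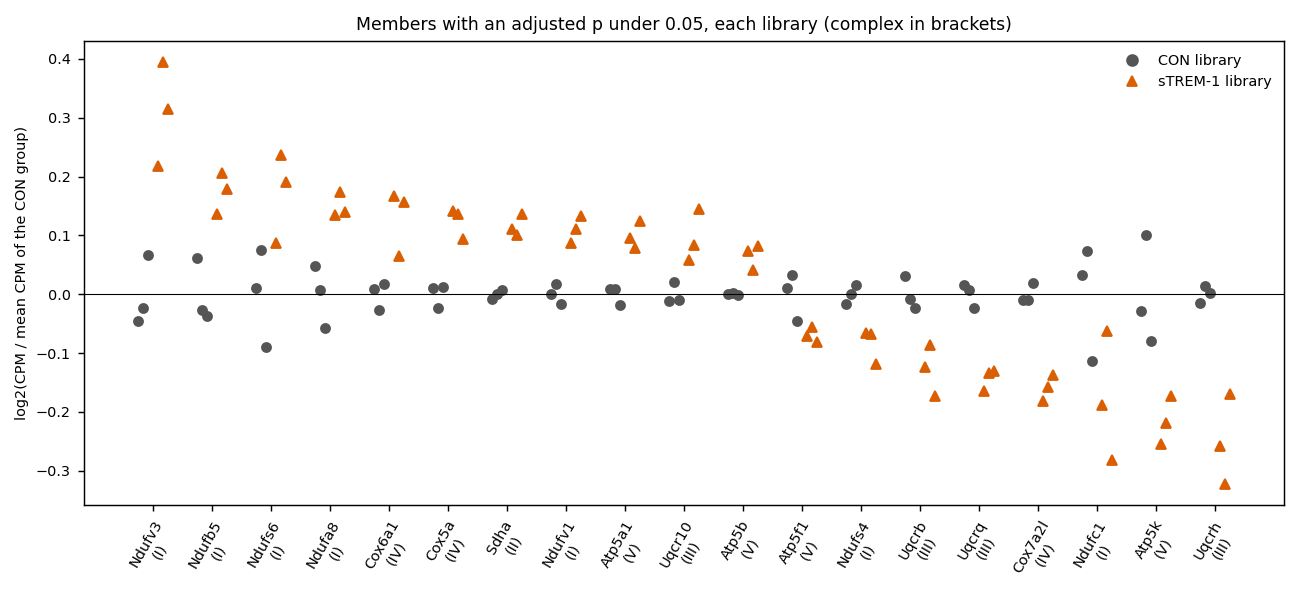
Log2 ratio of each library's CPM to the CON mean (y axis) for the 19 members with an adjusted p under 0.05, from the most raised to the most lowered, with CON libraries as circles and sTREM-1 libraries as triangles. Triangles lie apart from the circles in 18 of the 19 members, the exception being Ndufc1, and Ndufv3 and Uqcrh stand farthest from 0.

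In complex IV, 2 of 14 members rose and 1 fell (21.4% called, beside 30.5% of all tested genes). Cox6a1 had 132, 129 and 133 CPM in the CON libraries and 148, 138 and 147 in the sTREM-1 libraries (log2 fold change 0.13 ± 0.03, edgeR adjusted p = 0.00164). Cox5a, a subunit on the matrix side, had 77.7, 75.8 and 77.7 CPM in the CON libraries and 85.0, 84.7 and 82.3 after sTREM-1 (log2 fold change 0.12 ± 0.03, edgeR adjusted p = 0.00641). In both genes every sTREM-1 library exceeded every CON library. The member that fell, Cox7a2l (also called SCAF1), is known as the factor that joins complexes III and IV into a supercomplex, and is not itself a subunit of complex IV. On chromosome 17 from 83501918 to 83517330, it had 194, 194 and 198 CPM in the CON libraries and 173, 175 and 178 after sTREM-1. It fell, with a log2 fold change of -0.16 ± 0.03 (edgeR adjusted p = 2.92e-05), and Cox6a1, Cox5a and Cox7a2l were called in all 14 alternatives.

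The other 11 members of complex IV were not called. Cox4i1 had 614, 582 and 591 CPM in the CON libraries and 612, 593 and 644 after sTREM-1, with a log2 fold change of 0.05 (95% interval -0.00 to 0.10). Cox5b, which binds zinc, and Cox8a, the general form of its subunit, each had a log2 fold change of 0.05, with edgeR adjusted p of 0.200 and 0.186. The muscle form Cox6a2 had a log2 fold change of -0.24 ± 0.10 with overlapping groups (edgeR adjusted p = 0.0777), opposite in sign to that of Cox6a1. The estimates of Cox7a2, Cox6b1 and Ndufa4 were -0.08, -0.03 and 0.05 on the log2 scale, none of them called. For the scarce Cox7a1 the 95% interval ran from -0.46 to 0.60. Cox7c had 13.9, 14.7 and 13.5 CPM in the CON libraries and 15.5, 16.1 and 16.3 after sTREM-1, which did not overlap, but its log2 fold change of 0.18 ± 0.08 had an edgeR adjusted p of 0.0702.

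In complex V, 2 of 18 members rose and 2 fell (22.2% called, beside 30.5% of all tested genes). Of 5 members of F1, the catalytic head, 2 rose and 0 fell (40% called). Atp5a1, the alpha subunit, had 835, 835 and 819 CPM in the CON libraries and 886, 876 and 904 after sTREM-1 (log2 fold change 0.10 ± 0.02, edgeR adjusted p = 0.000391). Atp5b, the beta subunit and the member with the most counts, had 1247, 1248 and 1245 CPM in the CON libraries and 1311, 1282 and 1319 after sTREM-1 (log2 fold change 0.07 ± 0.02, edgeR adjusted p = 0.00955). The CON libraries of Atp5b differed by less than 3 CPM, while its sTREM-1 libraries had an SD of 19.5 CPM. Its change of 1.05-fold passed the test, and its call was lost without sTREM-1 replicate 1. The gamma subunit Atp5c1, the shaft of the motor, changed by 0.07 as well (edgeR adjusted p = 0.122), with 123 ± 3.86 and 129 ± 2.39 CPM.

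Of 10 members of Fo and the stalks, 0 rose and 2 fell (20% called, beside 30.5% of all tested genes). Atp5k, the e subunit at which ATP synthase forms dimers, had 34.6, 37.9 and 33.4 CPM in the CON libraries and 29.6, 30.4 and 31.3 after sTREM-1 (log2 fold change -0.21 ± 0.05, edgeR adjusted p = 0.00243). Atp5f1, the b subunit of the outer stalk, had 263, 267 and 253 CPM in the CON libraries and 248, 251 and 246 after sTREM-1 (log2 fold change -0.07 ± 0.03, edgeR adjusted p = 0.044). Its groups were close together. The call was lost without the filter on low counts, and without CON replicate 1, CON replicate 2, sTREM-1 replicate 1 or sTREM-1 replicate 3. Atp5f1 also overlaps Wdr77 on the opposite strand, and Atp5a1 overlaps Haus1. Atp5a1 and Atp5k were called in all 14 alternatives. Atp5o, the stalk subunit that caps F1, had a log2 fold change of 0.06 (edgeR adjusted p = 0.133), and of 0.10 with a call (edgeR adjusted p = 0.0066) after the correction for GC content and length. Whether F1 and Fo differed in their response was not tested.

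The length of the transcript was looked at because many of these genes are short. Members had a median length of 680 nucleotides, from 272 in Atp5k to 2900 in Sdha, against 2227 in all tested genes with a length. Across the members, Spearman's rho between length and log2 fold change was 0.100, and across 12812 tested genes 0.037, where genes share the libraries and are not independent. Of the 41 members of at most the median length, 6 rose and 5 fell, and of the 39 longer ones 5 rose and 3 fell. In all, 23.8% of the members were called, beside 30.5% of all tested genes.

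Around the subunits, the assembly factors and carriers moved in both directions. Of 15 assembly factors of complex I, 2 rose and 2 fell, with Ecsit at 0.27 and Timmdc1 and Ndufaf2 at -0.21 and -0.20 on the log2 scale (edgeR adjusted p = 0.0190, 0.010 and 0.0130). Bcs1l, which inserts the Rieske protein into complex III, rose by 0.27 ± 0.07, and Ttc19, which clears fragments of that protein, fell (-0.24 ± 0.07, edgeR adjusted p = 0.00330 and 0.00984), and these were the calls among 6 factors of complex III. Among 23 factors of complex IV, 4 rose and 4 fell, with Higd1a at 0.26, Cox10, which makes heme for cytochrome oxidase, at 0.21 and Higd2a at -0.19. With DESeq2, 1 factor of complex I was higher, and 3 factors of complex IV were higher and 2 lower. None of 4 factors of complex II and 2 of complex V was called by edgeR or DESeq2, with 1 and 0 at an unadjusted p under 0.05.

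Electron carriers and exchangers held 3 higher and 4 lower genes of 16. The ADP/ATP exchangers Slc25a4 and Slc25a5, which pass the ATP made by complex V to the cytosol, rose with Atp5a1 and Atp5b. Slc25a4 had 252, 254 and 241 CPM in the CON libraries and 288, 294 and 292 after sTREM-1 (log2 fold change 0.23 ± 0.03, edgeR adjusted p = 4.03e-08), and Slc25a5 changed by 0.20 ± 0.02 (edgeR adjusted p = 1.67e-07). Coq9, needed to make coenzyme Q, fell (-0.20 ± 0.04, edgeR adjusted p = 6.64e-05). Of 16 transcriptional regulators of these genes 0 rose and 2 fell, the coactivator Ppargc1b (-0.21 ± 0.06, edgeR adjusted p = 0.00595) and Gabpb2, a partner of GABPA (-0.13 ± 0.03, edgeR adjusted p = 0.000322). Nrf1 and Yy1, whose motifs are shown above, had log2 fold changes of -0.01 and -0.04 and were not called, nor was Gabpa at 0.07. The shares of these lists called lay between 0% and 43.8%, beside 30.5% of all tested genes.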

How the data were processed

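Total RNA of BV2 cells was sequenced from 3 CON and 3 sTREM-1 libraries. The authors deposited raw counts per gene symbol, as whole numbers without normalization. The methods name FastQC, RSEM, FPKM and edgeR. Per the labels, the submitters' processing notes name HISAT2 2.0.4 and the human builds hg19 and GRCh38, although the symbols are mouse symbols, so the build of the counts is unclear and no coordinates come from them. The methods give another number of samples per group than the labels, which give 3. Strand and annotation are not given in the sources used here.

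In R 4.3.3 and edgeR 4.0.16, filterByExpr with a minimum of 10 counts kept 14120 genes, TMM set the library sizes, and the quasi-likelihood test with Benjamini-Hochberg adjustment over these genes gave the p-values. All libraries were used without covariates. The labels do not say that replicates are separate cultures, so p-values measure the spread between these libraries (biological coefficient of variation 3.99%). Counts of 2 libraries of a group differed by more than sampling noise (chi-square per gene from 3.41 to 4.84, between groups 19.1 to 20.9). Depth, at least 40070633 counts, limits mainly the scarce genes. Same-numbered libraries did not deviate together (correlations -0.018, -0.033 and -0.014). Lengths and gene coordinates come from GENCODE M21 (GRCm38), matched by symbol, where 80 of 80 members matched, and near-identical copies from BLAST+ 2.17.0. A level per length is CPM divided by transcript length.

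Alternatives were RLE scaling, no filter, 10 counts in every library, edgeR's exact test, DESeq2 1.42.0, the replicate number as a block (replicate block), a GC and length correction with and without that block, and leaving out each library. The members, gene lists and motifs were chosen with earlier results of these data known. Named genes were, per complex and direction, up to 5 called members without overlap by p-value, the 2 highest per length, the catalytic core and isoform pairs, and up to 3 genes of each other list. Others (the scarce members, Ndufb2, Ndufa3, Cox7c, Uqcr11, Uqcrc2, Nrf1, Yy1 and Gabpa among them) were named after their values were seen. Some genes are not reported here by name.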

Additional observations from a re-analysis of the deposited data

How the results depend on the processing

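Of the 19 called members, 10 (Ndufv3, Ndufv1, Sdha, Uqcrh, Uqcrq, Cox7a2l, Cox6a1, Cox5a, Atp5a1 and Atp5k) stayed past the threshold in all 14 alternative analyses, and no called member changed direction. The count of higher members, 11, became 17 at an unadjusted p under 0.05, 7 at an adjusted p under 0.01, 1 with at least a 1.2-fold change, and 7 to 12 when 1 library was left out. The count of lower members, 8, became 14, 5 and 0 under the same rules, and 5 to 11 when 1 library was left out. The GC and length correction, which had values for 90.7% of tested genes, gave 16 higher and 5 lower, and together with the replicate block 18 higher. Under the correction without the block, Ndufs4, Ndufc1, Uqcrb and Ndufaf2 were no longer called. Members newly called higher under it included Atp5o, Ndufv2, Atp5c1 and Ndufa4. With the block added, Ndufc1 was called (edgeR adjusted p = 0.0221). The replicate block alone kept all 19 members and called 21, and 0 of 3 replicate numbers correlated best with their own, so the numbers were not treated as pairs. The median of all members, 0.0283, was 0.0151 to 0.0240 with 1 library left out. That of complex I, 0.0154, was 0.0122 with RLE scaling and 0.0122 with at least 10 counts in every library, 0.0181 without a filter, 0.0134 with DESeq2 and 0.000196 to 0.0234 with 1 library left out. The median of complex III was -0.0479 with the GC and length correction, -0.0478 with the block added, and -0.0657 to 0.0390 with 1 library left out. The median of complex IV, 0.0507, ran from -0.0131 to 0.0382 with 1 library left out, and was negative without CON replicate 3 or sTREM-1 replicate 2. The cause of these shifts was not tested. Without Cox7a2l, Atp5s, Atp5sl and Atp5l2-ps, an alternative chosen after seeing the data, 11 members were higher and 7 lower. Uqcrc1, Ndufb4, Cox7a1 and Atp5l2-ps had few counts and the widest standard errors.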
